A study of Mus musculus with 12 samples.

Results

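Interferon-stimulated genes were followed in the livers of ageing mice through 9 genes chosen by name, Ifit1, Ifit3, Isg15, Irf7, Oas1a, Oasl2, Usp18, Ifi44 and Rsad2. All 9 were found among the 53465 genes of the count table, and all 9 had counts in every liver. The livers were from C57BL/6N mice, called young at 3 months, middle-aged at 12 months and aged at 18 months. Each age had 4 livers and each liver came from a different animal. The study's methods describe its animals as healthy males. No treatment or transgene was named for any group, so that age was the only labelled difference between them. The labels describe library preparation for young and old livers only, while the study's text names a public atlas as the source of the RNA-seq in which it compared all 3 ages, and the preparation of these 12 libraries is therefore uncertain.

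Interferons are secreted proteins that cells release on sensing viral or misplaced nucleic acid. Type I interferons bind the receptor made of Ifnar1 and Ifnar2, the kinases Jak1 and Tyk2 then pass the signal on, and a complex that includes Stat2 and Irf9 binds repeats of the letters GAAA in promoters of interferon-stimulated genes. In the liver, hepatocytes, resident macrophages (Kupffer cells) and endothelial cells can all run this programme, and a low tonic level of it is known in tissues without infection. The products of the 9 genes block viral RNA (Ifit1, Ifit3, Oas1a, Oasl2, Rsad2), modify proteins (Isg15), amplify the response (Irf7), end it (Usp18) or have a less settled role (Ifi44).

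Libraries held between 8124312 and 10527159 gene counts. Between 16361 and 17563 genes were detected in 10 of them, against 22284 for young replicate 3 and 19982 for middle-aged replicate 1. Mitochondrial genes took 19.2% of gene counts in young replicate 2, the highest share. By their synthetic spike-in RNA the libraries formed a set A, replicates 1 and 2 at each age, and a set B, replicates 3 and 4, with correlations across 31 spike-ins of at least 0.997 within and at most 0.925 between sets. Spike-ins took 3.50 to 10.6% of all counts in young, 1.59 to 2.73% in middle-aged and 1.87 to 3.51% in aged libraries. The share was highest in young replicate 2, and young and middle-aged libraries did not overlap. Its bearing on gene levels was not tested. As a check of the tissue, the summed level of 8 hepatocyte markers lay between 746432 and 997096 normalised counts (counts divided by a size factor for each library). Results that rest on these libraries and sets are given with and without them.

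The comparison of middle-aged with young livers showed the largest differences among these genes. Ifit1, Ifit3, Isg15 and Usp18 were lower at 12 months than at 3 months, by 1.72-fold (Ifit3) to 2.36-fold (Usp18), and in each of them every middle-aged liver lay below every young one. These 4 of the 9 genes passed a DESeq2 test with Benjamini-Hochberg adjusted p under 0.05 and none of the 9 was called higher. Over all 11333 genes tested, 6.41% were called, and 2.9% were called lower. The 9 genes were chosen with earlier results of these data known, so the comparison with these shares is a description only. At 18 months the 9 estimates were all below the young level and 8 of them above the middle-aged level, but none passed the test in either comparison. In bulk tissue such as this, fewer cells of a type and less RNA per cell cannot be told apart.

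**Figure D1:**
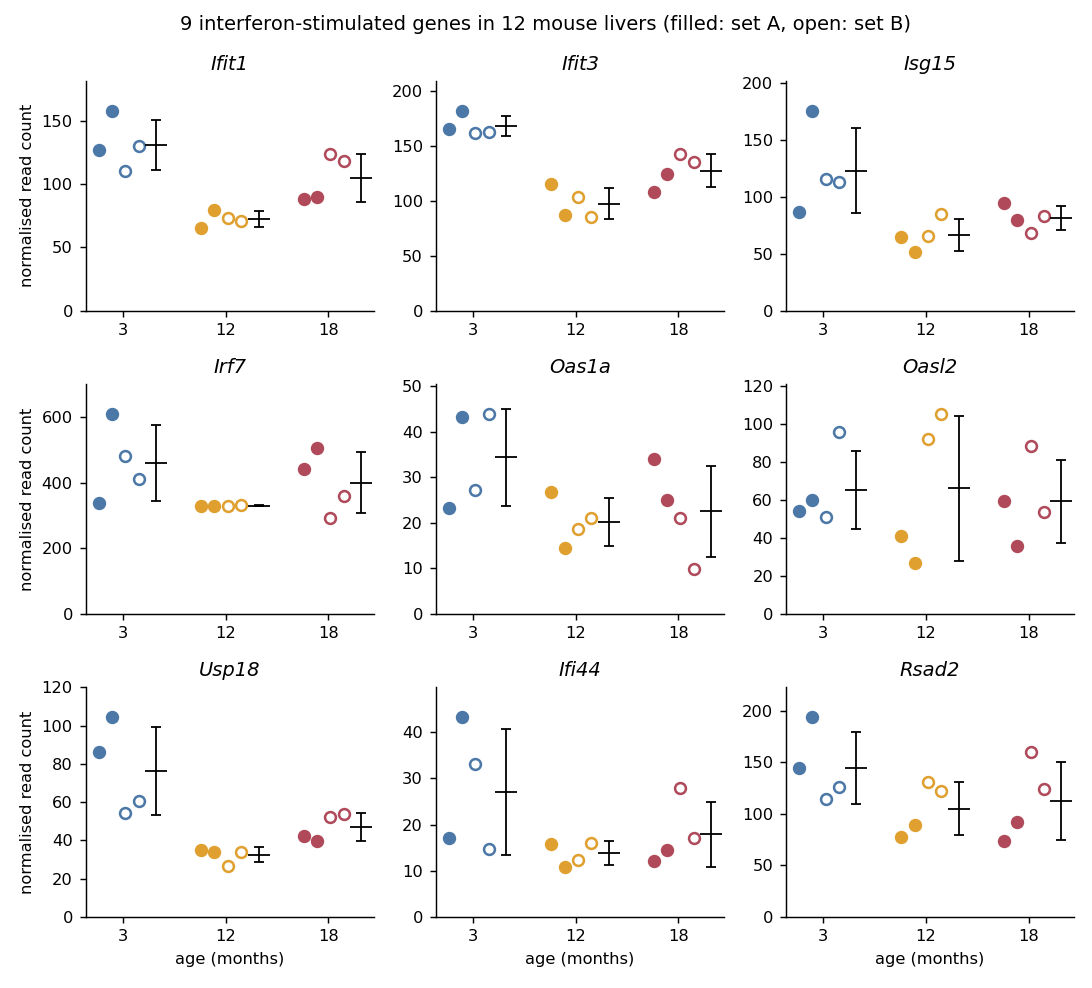
Normalised read count (y axis, starting at 0, a scale of its own in each panel) against age in months (x axis) for the 9 genes. Each circle is 1 liver in order of replicate number, filled for set A and open for set B, and the black bar beside each age is the mean with SD of 4 livers. In the Ifit1, Ifit3, Isg15 and Usp18 panels all 4 livers of 12 months lie below all 4 of 3 months, whereas Oasl2 at 12 months spans 26.9 to 105.

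The IFIT proteins are known for binding foreign RNA and keeping it from being translated. Ifit1 (ENSMUSG00000034459, chr19:34640871-34650009, + strand, GRCm38) had 127, 158, 110 and 130 normalised counts in young replicates 1 to 4, 65.5, 79.9, 73.3 and 71.2 in middle-aged livers, and 88.3, 89.6, 124 and 118 in aged livers. Young and middle-aged livers did not overlap, nor did middle-aged and aged livers, while aged replicates 3 and 4 lay within the young range. The log2 fold change of middle-aged against young livers was -0.85 ± 0.18 (SE; DESeq2 adjusted p = 0.000319). Aged livers stood at -0.32 ± 0.17 against young (adjusted p = 0.371) and at 0.54 ± 0.18 against middle-aged livers (adjusted p = 0.129).

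Ifit3 (ENSMUSG00000074896, chr19:34583531-34588731, + strand) had 166, 182, 162 and 163 normalised counts in young livers, 115, 87.1, 103 and 85.2 in middle-aged livers, and 108, 124, 142 and 136 in aged livers. Young livers were all above those of both other ages, and aged replicate 1 was the only aged liver inside the middle-aged range. The fold change of middle-aged against young livers was the most precise of the 9 genes, with a log2 value of -0.78 ± 0.15 (SE; adjusted p = 3.78e-05). Against young livers the aged ones stood at -0.39 ± 0.15 (adjusted p = 0.109). Ifit3 has a near-identical neighbour, Ifit3b, between which reads could be split, so the value of Ifit3 alone is uncertain. Ifit3b was lower in level, at 28.5 normalised counts on average, with a log2 fold change of -0.15 ± 0.31 between middle-aged and young livers (adjusted p = 0.839).

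Isg15 is a small ubiquitin-like protein that is attached to other proteins during the interferon response. Isg15 (ENSMUSG00000035692, chr4:156199424-156200818, - strand) had 87, 176, 116 and 113 normalised counts in young livers, 64.5, 51.2, 65.3 and 85.2 in middle-aged livers, and 94.3, 79.9, 68.2 and 83.1 in aged livers. Middle-aged replicate 4 fell just short of the lowest young liver, and aged replicate 1 was the only aged liver inside the young range. The log2 fold change of middle-aged against young livers was -0.88 ± 0.24 (adjusted p = 0.00751), and that of aged against young -0.59 ± 0.23 (adjusted p = 0.143). This call rested in part on young replicate 2 and on middle-aged replicate 2: without the former the value was -0.67 (adjusted p = 0.0658) and without the latter -0.78 (adjusted p = 0.0509), in a range of 0.00136 to 0.577 over all alternatives.

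Usp18 removes Isg15 from proteins and also sits on the type I interferon receptor, where it ends signalling. It showed the largest difference of the 9 genes. Usp18 (ENSMUSG00000030107, chr6:121245906-121270917, + strand) had 86, 104, 54.5 and 60.5 normalised counts in young livers, 34.8, 34.1, 26.5 and 34.1 in middle-aged livers, and 42.2, 39.5, 52.4 and 53.6 in aged livers. No age overlapped another: every aged liver was below every young one and above every middle-aged one, although young replicate 3 and aged replicate 4 were less than 1 count apart. The log2 fold change was -1.24 ± 0.26 for middle-aged against young (adjusted p = 0.000284), -0.69 ± 0.25 for aged against young (adjusted p = 0.0968) and 0.54 ± 0.26 for aged against middle-aged livers (adjusted p = 0.463). Gm44148, a noncoding gene on the opposite strand within Usp18, had 3 counts in all libraries together.

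RefSeq promoter sequences (GRCm38.p6) were searched for the letters GAAANNGAAA, the core of the element bound by the complex that includes Stat2 and Irf9, on both strands and from 250 bases before to 50 after the start of each gene. The letters occurred in 3.44% of 32851 promoters, and at 2 or more places in 0.225%. Of the 9 genes, 8 had a promoter entry, all except Usp18, and 5 held a match. A match was also held by 6 of 10 relatives of the 9 genes and by 9 of 26 further genes induced by interferon. It was held by 11 of 21 genes that answer mainly to interferon gamma, 11 of 20 interferon genes and 1 of 10 receptor and signal transducer genes. Any relation of the letters to the fold changes was not tested. The promoters of the 3 called genes with an entry are shown, over the 170 bases before the start. Each carried 2 or more matches, as did Oas1a, which was not called. Capitals mark the matches, which read TTTCNNTTTC where the element lies on the other strand.
Ifit1 (chr19:34640719-34640888, + strand): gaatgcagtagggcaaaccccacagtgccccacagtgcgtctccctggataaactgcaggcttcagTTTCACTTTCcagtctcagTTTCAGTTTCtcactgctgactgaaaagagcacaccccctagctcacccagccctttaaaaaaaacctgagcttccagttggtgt
Ifit3 (chr19:34583359-34583528, + strand): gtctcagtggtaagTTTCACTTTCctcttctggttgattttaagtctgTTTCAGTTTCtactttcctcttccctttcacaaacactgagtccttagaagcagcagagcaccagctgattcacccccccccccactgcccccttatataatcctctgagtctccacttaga
Isg15 (chr4:156200819-156200988, - strand): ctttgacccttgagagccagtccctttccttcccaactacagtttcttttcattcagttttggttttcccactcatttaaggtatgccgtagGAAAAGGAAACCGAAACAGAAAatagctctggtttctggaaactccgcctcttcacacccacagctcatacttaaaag

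In Ifit1 the matches began 104 and 85 bases before the start, and in Ifit3 156 and 122 bases before it. Ifit1 and Ifit3 shared the letters of both their matches, TTTCACTTTC and TTTCAGTTTC. The 3 matches of Isg15 began 78, 72 and 66 bases before the start and each overlapped its neighbour. Among the genes that were not called, Oas1a held 2 overlapping matches that began 20 and 14 bases before the start and Rsad2 held 1, at 120 bases. The windows of Irf7, Oasl2 and Ifi44 held none, which says only that these letters are not in these windows.

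Irf7 is the transcription factor that carries the amplifying loop of the type I interferon response. Irf7 (ENSMUSG00000025498, chr7:141262706-141266481, - strand) had 340, 610, 483 and 411 normalised counts in young livers, 329, 329, 329 and 332 in middle-aged livers, and 443, 506, 292 and 360 in aged livers. All middle-aged livers were below all young ones, with young replicate 1 closest to them, and aged replicate 3 was the lowest of the 12 livers. Irf7 was thus the only one of the 5 genes without overlap between young and middle-aged livers that did not pass the test, at a log2 fold change of -0.48 ± 0.19 (adjusted p = 0.103). Such a separation, every middle-aged liver below every young one, was found in 7.75% of 11804 genes whose mean normalised count was 10 or more. Across the middle-aged livers Irf7 varied by 0.449% (coefficient of variation), less than the 5.34% that counting alone gives at this depth, against 25% in young and 23.4% in aged livers. The end of Irf7 overlaps 45 bases of Phrf1 on the opposite strand, and the strand setting of the counting was not given.

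The 2′-5′ oligoadenylate synthetases respond to double-stranded RNA. Oas1a makes the messenger that activates an RNA-degrading enzyme, and Oasl2 is a related protein with a ubiquitin-like part. Oas1a (ENSMUSG00000052776, chr5:120896256-120907521, - strand) had 23.4, 43.3, 27.3 and 43.9 normalised counts in young livers, 26.8, 14.4, 18.5 and 21 in middle-aged livers, and 34.1, 25, 21 and 9.83 in aged livers. Middle-aged replicate 1 was the only middle-aged liver inside the young range. The log2 fold change of middle-aged against young livers was -0.78 ± 0.39 (adjusted p = 0.225). Oas1a shares much of its sequence with Oas1g, which had 8.76 normalised counts on average, so reads between them may be split differently by other counting.

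Oasl2 (ENSMUSG00000029561, chr5:114896936-114912234, + strand) had the smallest estimated difference of the 9 genes between middle-aged and young livers, though it was not tested against the other 8. Young livers had 54.1, 59.9, 50.9 and 95.7 normalised counts, middle-aged livers 40.7, 26.9, 91.8 and 105, and aged livers 59.2, 35.6, 88.3 and 53.6. Within middle-aged livers the set A replicates were both below the set B replicates, by more than any difference between the means of the ages. The log2 fold change of middle-aged against young livers was 0.02 ± 0.41, with a 95% interval from -0.79 to 0.83, and Oasl2 was the only one of the 9 genes with an estimate above 0. That sign turned in 9 of the 20 alternatives that gave an adjusted p, and without middle-aged replicate 4, which gave none.

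Rsad2, also called viperin, makes a nucleotide that stops viral RNA synthesis. Its counts (ENSMUSG00000020641, - strand of chromosome 12) were 144, 194, 114 and 126 in young livers, 77.4, 88.9, 131 and 122 in middle-aged livers, and 73.3, 91.5, 160 and 124 in aged livers after normalisation. The groups overlapped, and in both older groups the set A replicates were the lower ones. The log2 fold change was -0.46 ± 0.27 for middle-aged against young livers (adjusted p = 0.307) and -0.36 ± 0.27 for aged against young livers (adjusted p = 0.567), and -0.29 and -0.19 without young replicate 2. Ifi44, an interferon-induced protein of the cytoplasm, had the lowest counts of the 9 genes (ENSMUSG00000028037, chr3:151730922-151749960, - strand). It had 17, 43.3, 33.2 and 14.6 normalised counts in young livers, 15.9, 10.8, 12.4 and 16 in middle-aged livers, and 12, 14.4, 28 and 17 in aged livers. Young replicate 4 lay inside the middle-aged range, young replicate 1 less than 1 count above it and the others well above, and the log2 fold change was -0.96 ± 0.44 (adjusted p = 0.17). At such counts counting alone gave a coefficient of variation of 20.7 to 26.3%.

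**Figure D2:**
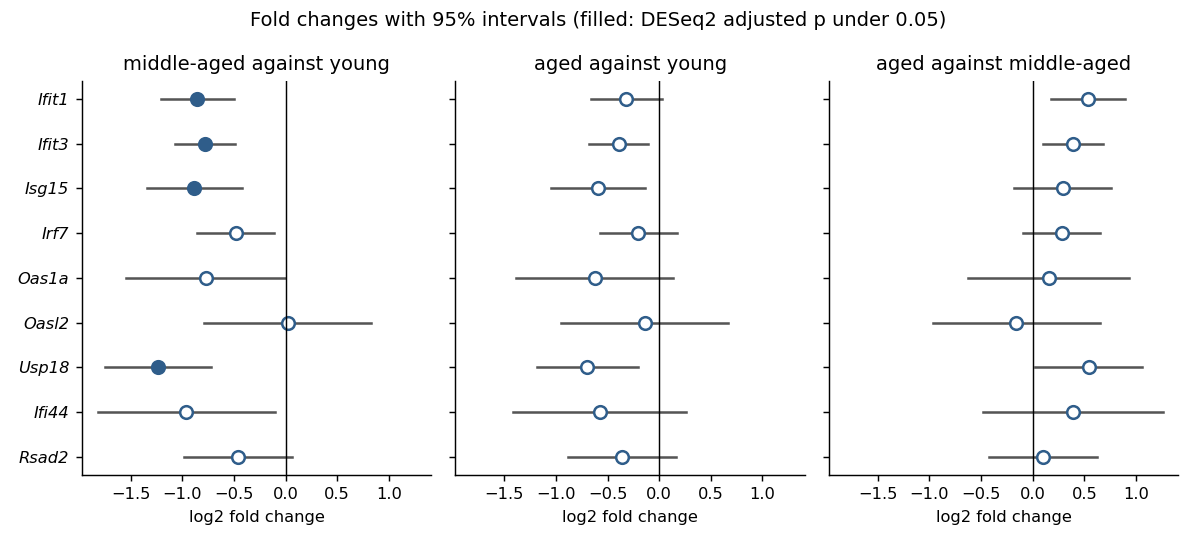
Log2 fold change (x axis) of each gene (rows) in the 3 comparisons of ages, with circles for the estimates and lines for their 95% intervals. Filled circles, adjusted p under 0.05, occur in the panel of middle-aged against young livers only, for Ifit1, Ifit3, Isg15 and Usp18. All 9 estimates lie below 0 for aged against young livers.

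Per kilobase of annotated exon, the level in young livers ran from 4.41 ± 2.22 normalised counts per kb for Ifi44 to 163 ± 49.6 for Isg15 (SD, n = 4). Between them came Oasl2 at 10.2 ± 3.24, Oas1a at 18.3 ± 5.67, Usp18 at 27.4 ± 8.3, Rsad2 at 33.3 ± 8.1, Ifit1 at 49.4 ± 7.44, Ifit3 at 96.4 ± 5.35 and Irf7 at 122 ± 30.6 per kb. Isg15 and Irf7, Irf7 and Ifit3, and Rsad2 and Usp18 were neighbours whose difference was within their spread. In middle-aged livers Isg15 (88 ± 18.5 per kb) and Irf7 (87.3 ± 0.392 per kb) stood level at the top of this order.

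Compared with young livers, aged ones had lower estimates for all 9 genes, yet DESeq2 called 0 of 9, where 3.58% of 13527 genes were called. Usp18, Ifit3 and Isg15 had an unadjusted p under 0.05, and edgeR also called 0 of 9. In Ifit3 and Usp18 every aged liver was below every young one, a separation seen in 3.81% of 11804 genes. The median log2 fold change of the 9 genes was -0.39, against 0.01 over those 11804 genes. For middle-aged against young livers the median of the 9 was -0.78, with 8 estimates below 0, against 0.01 over all.

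Between aged and middle-aged livers, 8 of the 9 estimates were above 0, with a median of 0.29 against 0.00 over all genes. DESeq2 called 0 of the 8 genes that received an adjusted p, as Ifi44 was set aside for its low count, and 1.14% of 10236 genes were called. Ifit1, Ifit3 and Usp18 had an unadjusted p under 0.05, and edgeR called 0. Every aged liver was above every middle-aged one in Ifit1 and Usp18, as in 3.08% of all genes. Across the 3 ages together, DESeq2's likelihood ratio test called the same 4 genes as between middle-aged and young livers, with adjusted p from 0.000123 (Ifit3) to 0.0141 (Isg15), and 6.96% of 12430 genes. The summed level of the 9 genes was 1044 to 1570 normalised counts in young, 954 to 1006 in aged and 722 to 872 in middle-aged livers. These ranges did not overlap, but the sum was not tested and no share over all genes stands beside it. Irf7, which contributed most to it, had 292 to 506 in aged livers, which overlapped young (340 to 610) and middle-aged livers (329 to 332). These comparisons share the livers of each age and are not independent of each other.

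Within set A, where 2 livers stood against 2, all 9 estimates for middle-aged against young livers were below 0, and within set B 7 of 9 were. For Ifit3 both sets gave nearly the same log2 fold change, -0.78 and -0.80, as they did for Irf7, at -0.53 and -0.44. Ifit1 stood at -0.97 and -0.74, Isg15 at -1.18 and -0.62, and Usp18 at -1.46 and -0.94 in sets A and B. With so few livers DESeq2 called only Usp18 in set A (adjusted p = 0.0407) and none of 6 in set B, where Usp18, Oas1a and Ifi44 received no adjusted p and 3 of the 9 had an unadjusted p under 0.05. Oasl2 and Rsad2 differed most between the sets, with -0.75 in set A and 0.41 in set B for Oasl2 and -1.02 and 0.07 for Rsad2. For aged against young livers Ifit1 had -0.68 in set A and 0.01 in set B, and Usp18 -1.22 and -0.12, while Irf7 had 0.01 and -0.46 and Oas1a -0.16 and -1.21. The difference between the sets was not tested.

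**Figure D3:**
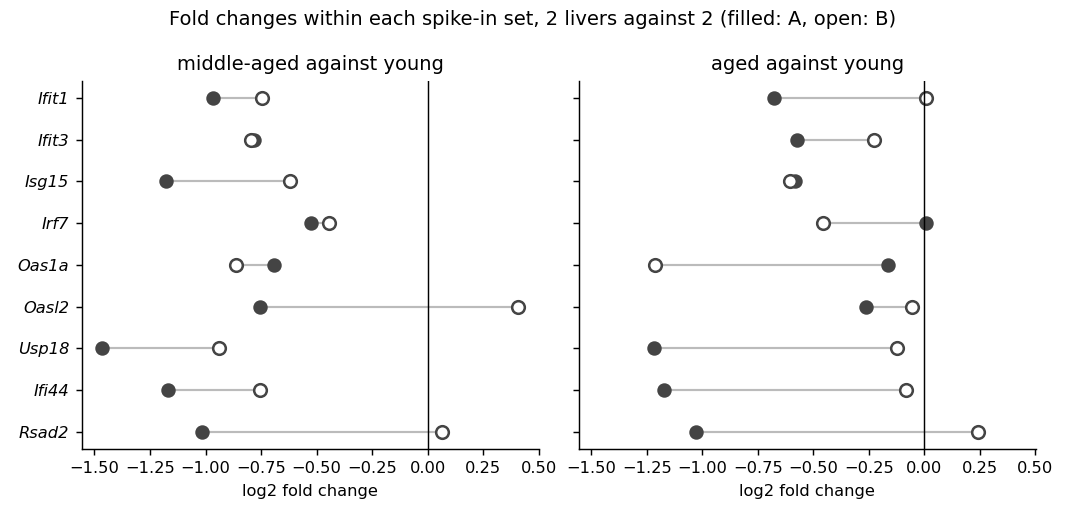
Log2 fold change (x axis) of each gene (rows) estimated within set A (filled circles) and within set B (open circles), with 2 livers of each age, for middle-aged against young (left) and aged against young livers (right). The circles of Ifit3 nearly coincide on the left, and those of Rsad2 and Oasl2 lie on opposite sides of 0 there. On the right the set A circles of Usp18, Ifi44 and Rsad2 lie beyond -1.

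Among the young livers, replicate 2 was the highest in 7 of the 9 genes, all except Oas1a and Oasl2, in which replicate 4 was highest. This library also had the 19.2% share of mitochondrial counts and the highest share of spike-in counts, 10.6%. Its summed level of 6 neutrophil markers was 343 normalised counts, against 47.8 to 75.4 in the other young livers. Young replicate 3, which had the most genes detected, was the lowest young liver in 5 genes. Without young replicate 2, Ifit1, Ifit3 and Usp18 were called between middle-aged and young livers, and without young replicate 3 all 4 genes were. Leaving out young replicates 2 and 3 and middle-aged replicate 1 together, 2 of the 9 were called, Ifit3 at -0.84 (adjusted p = 0.0292) and Usp18 at -1.22 (adjusted p = 0.0487). Ifit1 stood at -0.78 in that fit (adjusted p = 0.125). Leaving out middle-aged replicate 2, the liver lowest in 5 of the 9 genes, 2 were called, Ifit1 and Ifit3, and Usp18 received no adjusted p. Usp18 was called in all 17 alternatives that gave it an adjusted p, Ifit3 in 19 of 21, Ifit1 in 18 of 21 and Isg15 in 14 of 21.

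The 9 genes differed in how closely they followed each other. Over the 12 livers, the correlation of each gene's log2 level with the mean standardised level of the other 8 was 0.88 for Isg15, 0.83 for Usp18, 0.82 for Ifit3 and 0.82 for Ifit1. It was 0.74 for Ifi44, 0.63 for Rsad2, 0.52 for Irf7 and 0.51 for Oas1a, and lowest for Oasl2 at 0.21. These values share library depth and age and are given as a description. The 4 genes called at 12 months had the 4 highest values, but the differences between ages enter these correlations, so this is not a separate result.

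The other genes of the pathway were read from lists by role. At its head, 18 of 20 interferon genes, the beta gene and every alpha gene of the list among them, had no count in any liver, which by the limit of 3 counts allows a level of up to 0.285 to 0.369 CPM (counts relative to the gene counts of a library), depending on the library. Ifng, the type II interferon, had 3.91 normalised counts in young replicate 4, 1.002 in the fourth middle-aged liver and none elsewhere, and Ifnl2 had 1.18 in young replicate 3. Interferon transcripts were thus at or close to the floor of 2.62 to 3.82 normalised counts, and no comparison of them was possible.

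Of 12 receptor and signal transducer genes, 11 received an adjusted p and none was called in any comparison. Between middle-aged and young livers 6.41% of all genes were called, so lists this short can hold no call without being unusual. In that comparison 2 had an unadjusted p under 0.05 and edgeR called none. Jak1, the most abundant, stood at 0.06 (adjusted p = 0.801), and Stat2 at -0.31 (adjusted p = 0.134). The median of the 11 genes was -0.05 for middle-aged against young livers. Among 17 sensors and adaptors, which detect nucleic acid and pass the signal on, none of 14 tested was called, 4 had an unadjusted p under 0.05, edgeR called none and the median was -0.26. Mavs stood at 0.16 (adjusted p = 0.53) and Irf3 at -0.24 (adjusted p = 0.226). Nor was any of 6 brakes on the pathway other than Usp18 called by DESeq2 or edgeR, with 1 unadjusted p under 0.05, where Irf2 stood at 0.04 and Ptpn6 at 0.07. In the other comparisons of ages these 3 lists had no call by either tool, with 1 to 4 genes of a list at an unadjusted p under 0.05. Over all genes, 3.58% were called for aged against young and 1.14% for aged against middle-aged livers.

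**Figure D4:**
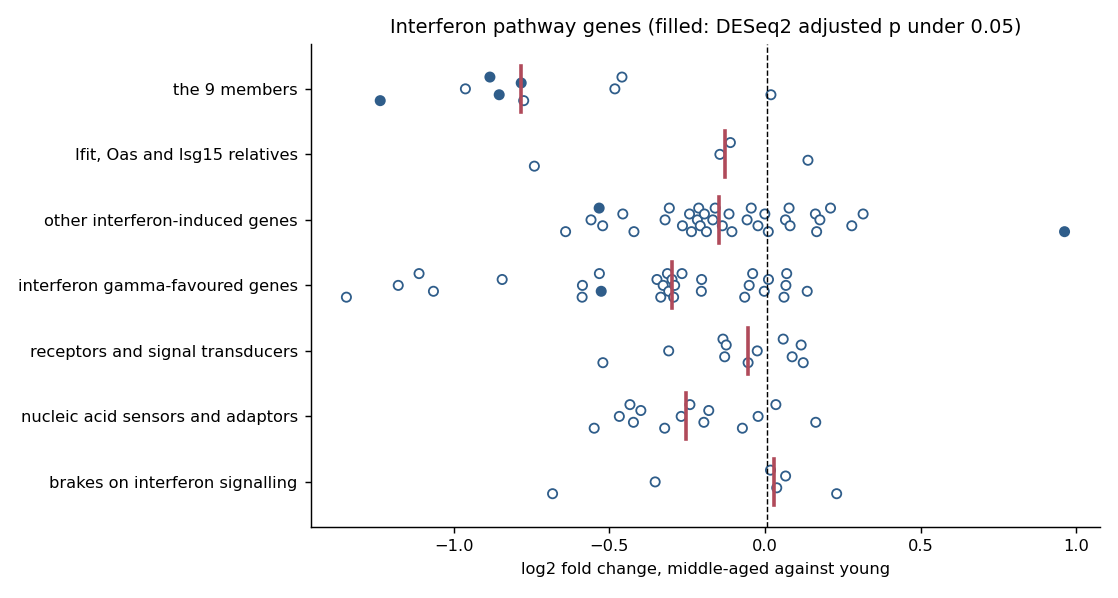
Log2 fold change of middle-aged against young livers (x axis) for genes of each list (rows) whose mean normalised count was 10 or more. Circles are genes, filled at adjusted p under 0.05, the red bar is the median of the list and the dashed line the median of all 11804 genes. Of the lists drawn, the 9 genes have the lowest median, -0.78, and hold 4 of the 7 filled circles.

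Of 12 relatives of the 9 genes, Oas1f and Ifi44l had no count and 4 reached a mean normalised count of 10, with a median log2 fold change of -0.13 between middle-aged and young livers. DESeq2 called none of the 3 it tested, where 6.41% of all genes were called. Of all relatives 1 had an unadjusted p under 0.05, and edgeR called none. Ifit2, next to Ifit1 and Ifit3 in the genome, stood at -0.11 (adjusted p = 0.851), and Oasl1 at 0.14 (adjusted p = 0.664). Among 37 further genes induced by interferon, 2 of 36 tested were called between middle-aged and young livers, in opposite directions. The share over all genes was 6.41%. None was called by edgeR, and 7 had an unadjusted p under 0.05. The median of the list was -0.15, with 25 estimates below 0 and 11 above. Between aged and young livers 8 had an unadjusted p under 0.05, with 19 estimates below 0 and 17 above.

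Bst2, or tetherin, which holds budding virus at the cell surface, was the gene of this list that was called lower. It had 1053, 1614, 1380 and 1297 normalised counts in young livers and 976, 961.5, 853 and 902 in middle-aged livers, with no overlap. Its log2 fold change was -0.53 ± 0.15 (adjusted p = 0.00895), but the adjusted p was 0.0704 without young replicate 2 and 0.0592 with edgeR, and the call was lost in 7 of 21 alternatives. Ifi27l2b, of a family of small mitochondrial and membrane proteins, went the other way. It had 12.7, 21.7, 17.8 and 36.1 normalised counts in young, 51.6, 36.8, 43.3 and 42.1 in middle-aged, and 64.2, 46.2, 69.9 and 66.2 in aged livers. Young livers were below all others, and the log2 fold change was 0.96 ± 0.31 for middle-aged (adjusted p = 0.034) and 1.47 ± 0.30 for aged livers against young (adjusted p = 0.000224). The middle-aged value lost its call in 12 of 17 alternatives. The aged value lost it in 3 of 21, within each spike-in set and without young replicates 2 and 3 and middle-aged replicate 1. It was called by edgeR (adjusted p = 0.0214).

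Genes that answer mainly to interferon gamma, such as guanylate-binding proteins, immunity-related GTPases and antigen-processing genes, had 1 call among 29 tested between middle-aged and young livers, beside 6.41% of all genes, and 1 among 30 between aged and young livers, beside 3.58%. Irgm1, a GTPase that acts on vacuoles of intracellular microbes, was lower at 12 months, with 564, 680, 659 and 801 normalised counts in young and 529, 466, 446 and 437 in middle-aged livers. These did not overlap, and the log2 fold change was -0.53 ± 0.13 (adjusted p = 0.0031). Psmb9, a subunit of the immunoproteasome, was lower at 18 months, at -0.66 ± 0.21 (adjusted p = 0.0457), a call that did not hold in 14 of 21 alternatives, edgeR among them. The median of the list was -0.30 for middle-aged and -0.29 for aged livers against young. Estimates were below 0 in 24 genes and above 0 in 5 for middle-aged livers, and in 26 and 3 for aged livers. An unadjusted p under 0.05 was found in 8 and 10 genes, and edgeR called 1 and 0.

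Markers of other liver cells were summed in each liver. All 12 Kupffer cell and macrophage markers were detected, and 10 of 12 had estimates below 0 between middle-aged and young livers with a median of -0.39. None was called, by DESeq2 (beside 6.41% of all genes) or by edgeR, with 4 at an unadjusted p under 0.05. Their summed level was 4675 to 8595 normalised counts in young, 4207 to 8241 in middle-aged and 5051 to 8228 in aged livers. Of 8 sinusoidal endothelial markers 7 had estimates below 0, with a median of -0.16 and sums of 1918 to 3322, 2006 to 2386 and 2152 to 2342. The 8 hepatocyte markers likewise had 7 estimates below 0 between middle-aged and young livers, with a median of -0.19. Of 8 stellate markers 7 had estimates above 0. Neutrophil sums were 47.8 to 343, 19.9 to 58.1 and 30.4 to 114 (6 markers), T and NK cell sums 65.8 to 109, 57.6 to 78.6 and 30.6 to 49.1 (10 markers), and B cell sums 49.8 to 251, 40.7 to 580 and 101 to 183 (6 markers). For the 6 markers of plasmacytoid dendritic cells, a known source of interferon, sums were 177 to 251, 175 to 246 and 171 to 292, nearly all from Tcf4, which other cells also express. Stellate sums were 1419 to 3233, 1906 to 3936 and 1743 to 3301 (8 markers), and biliary sums 280 to 354, 120 to 454 and 226 to 418 (6 markers). Of all these markers DESeq2 called only Marco, a macrophage receptor, and the biliary factor Sox9, both higher in aged than in young livers, at 2.46 ± 0.69 (adjusted p = 0.0178) and 0.86 ± 0.24 (adjusted p = 0.0169), and Sox9 also against middle-aged livers, and edgeR called neither. Without aged replicate 1 Marco stood at 1.43 (adjusted p = 0.0273). These calls were lost in 10 of 20 alternatives for Marco and in 11 of 21 for Sox9 against young livers. The part of these cells in the lower levels of Ifit1, Ifit3, Isg15 and Usp18 was not tested.

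The genes whose pattern over the 12 livers was most like the mean of the 9 were found among 8881 other genes whose mean normalised count was 50 or more. By Pearson correlation of log2 levels, a description in which all points share library and age, 9 of the 10 closest were Erh (0.92), Eid1 (0.91), Pfdn4 (0.90), Scara5 (0.90), Nectin2 (0.89), Ifi203 (0.88), 4732465J04Rik (0.86), Mrps17 (0.86) and Bsg (0.86). Ifi203 belongs to a family of interferon-inducible DNA-binding proteins. Scara5, a ferritin receptor, had the largest difference of these 9, with 170 ± 65.4 normalised counts at 3 months, 38.5 ± 6.61 at 12 months and 60.4 ± 18 at 18 months (SD, n = 4). Of the pathway lists, Bst2 (0.71, rank 245) and Irgm1 (0.71, rank 251) were among the closest. Over all lists, those of cell markers included, the closest gene was a sinusoidal endothelial marker (0.73, rank 190).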

How the data were processed

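RNA-seq counts of 12 livers (4 per age) were used. The authors deposited 1 table of whole-number read counts per gene, not normalised. The submitters' processing notes name STAR 2.5.2b, SAMtools 1.9, featureCounts, R 3.6.3, edgeR 3.28.1, DESeq2 1.26.0 and the builds mm10 and GRCm38; the strand setting and annotation release are not given in the sources used here. Ages and replicate numbers came from the sample titles. Symbols, positions and exon lengths came from GENCODE M21 (53360 of 53465 identifiers found). The 92 spike-in rows were left out of tests. Genes were tested with DESeq2 1.42.0 (R 4.3.3) on all 12 samples with age as the only term, using Wald tests for pairs of ages, a likelihood ratio test for the 3 ages, and Benjamini-Hochberg adjustment over all genes at 0.05. Values are relative to the other genes of a library. List medians use genes whose mean normalised count was 10 or more, and limits of detection use 3 counts and cover counting error only.

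The genes and lists were chosen with earlier results of these data known. Named were the 9 genes, the called genes of each list (otherwise its 2 most abundant) and the 10 genes most like the 9, plus Ifit3b, Oas1g, Cxcl9, Gbp2, Tgtp1 and Igtp, chosen after their values were seen; some items are not reported here. Alternatives were edgeR 4.0.16 quasi-likelihood tests, TMM factors, a filter of 10 counts in 4 samples, no independent filtering, no Cook's distance rule, only the 2 groups compared, a replicate block (also with edgeR), a covariate for the spike-in set, each set fitted alone, and fits without single libraries, without young replicate 3 and middle-aged replicate 1 together and, chosen after seeing the data, without young replicates 2 and 3 and middle-aged replicate 1. The scripts were tested on simulated data. No replicates agreed within sampling noise (smallest chi-square per gene 10.2 over 18 pairs).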

Additional observations from a re-analysis of the deposited data

Results flagged for a closer look

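With 4 livers per age, a liver was picked out when its gap to the nearest other liver passed Dixon's 95% critical share of the range of its age. Of 186 groups of 4 livers examined 18 were picked out, where chance alone gives about 1 in 20 for independent groups chosen beforehand. These groups share livers, the summed markers repeat single genes, and some genes were named after their values were seen. In the interferon ligands any read in a single liver was enough. The count can therefore not be set against that rate. Among the 9 genes 2 of 27 groups were: Ifit3 in young replicate 2 was at 182 normalised counts against 162 to 166 in the other young livers, and Usp18 in middle-aged replicate 3 was at 26.5 against 34.1 to 34.8.

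Young replicate 4 was high in 3 genes that answer mainly to interferon gamma, named here after their values were seen. The list of such genes held 30, and the others are not set out for this liver. Cxcl9, a chemokine that draws T cells, was at 489 normalised counts against 75.4 to 130, Gbp2, a guanylate-binding protein, at 338 against 73.2 to 114, and the GTPase Tgtp1 at 103 against 22.9 to 27.6. This liver also had the most Ifng, at 3.91 normalised counts with none in the other young livers, and middle-aged replicate 4 had 1.002 with none in the other middle-aged livers. Ifnl2 was at 1.18 in young replicate 3. These ligand levels rest on 1 to 4 reads.

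Of the other pathway and marker genes, Irgm1 was at 655 in aged replicate 2 (others 499 to 522), Marco at 182 in middle-aged replicate 3 (54.1 to 71.8) and Dnase1l3 at 604 in young replicate 2 (319 to 367). S100a9 was at 145 in young replicate 2 (14.6 to 25.5) and at 52.2 in aged replicate 1 (6.99 to 8.94), and Csf3r at 8.94 in aged replicate 4 (19.3 to 21.1). Summed markers stood apart for neutrophils in young replicate 2 (343) and aged replicate 1 (114), for B cells in young replicate 3 (251, others 49.8 to 70.0) and for sinusoidal endothelium in middle-aged replicate 2 (2386, others 2006 to 2047).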

How the results depend on the processing

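For middle-aged against young livers 4 of the 9 genes were called; 1 was called within set A, 0 within set B (3 with an unadjusted p under 0.05, and no adjusted p for Usp18, Oas1a and Ifi44), 2 without the 3 libraries that stand apart, and 2 to 5 when single libraries were left out. Across the 3 ages 4 were called, against 1 and 0 within sets A and B, 1 without those 3 libraries and 0 with edgeR and the replicate block (5 with an unadjusted p under 0.05). Livers with the same replicate number did not deviate together (correlations of -0.30 to 0.16 over 8888 genes), so the block pairs only numbers. It left the same 4 genes called between middle-aged and young livers with DESeq2 and 3 with edgeR. Aged livers had 0 calls in both comparisons under every alternative that gave an adjusted p, which set A did not for aged against middle-aged livers. Irf7 was called between middle-aged and young livers without young replicate 1 (adjusted p = 0.0245) and with only the 2 groups compared (0.0398), in a range of 0.0245 to 0.903.

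None of the 4 calls between middle-aged and young livers changed sign. Estimates that were not called did so as follows, on the log2 scale. For aged against young livers, Ifit1 was at 0.0073 and Rsad2 at 0.24 within set B, Irf7 at 0.0053 within set A and at 0.092 without the 3 libraries, Ifi44 at 0.19 without them, and Oasl2 ran from -0.40 to 0.11 when single libraries were left out (0.11 without young replicate 4, 0.04 without aged replicate 2). For middle-aged against young livers, Rsad2 was at 0.067 within set B, and Oasl2 at -0.13 with the block, -0.11 with the block in edgeR, -0.11 with the set as covariate, -0.75 within set A, -0.0092 without the 3 libraries and from -0.18 to 0.28 when single libraries were left out (-0.06, -0.02 and -0.08 without young replicates 1, 2 and 3). For aged against middle-aged livers, Irf7 was at -0.013 and Oas1a at -0.35 within set B, Oas1a from -0.12 to 0.41, Oasl2 from -0.42 to 0.16 and Rsad2 from -0.12 to 0.26 when single libraries were left out, and Rsad2 at -0.017 without young replicate 3 and middle-aged replicate 1 and at -0.016 without the 3 libraries. Within set A, with no adjusted p, Oasl2 was at 0.49, Rsad2 at -0.011 and Ifi44 at -0.0030 in that comparison. The cause was not tested.

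Counts over all genes moved more. The 484 genes of aged against young livers ran from 72 to 1291 over the alternatives, the 727 of middle-aged against young from 71 to 1166, the 117 of aged against middle-aged from 13 to 426, and the 865 across the 3 ages from 92 to 1637. edgeR called 172, 280, 13 and 234. Replicate error here is the spread between 4 animals per age.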
